A study of Mus musculus with 15 samples.

Results

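The transcription factor p53 (gene Trp53), its inhibitors Mdm2 and Mdm4, and 5 of its target genes (Ccng1, Sesn1, Sesn2, Zmat3 and Trp53inp1) were examined for H3K27ac peaks in a mouse muscle tumor. These 8 genes are among 21774 protein-coding RefSeq genes of mm10. A window was set for each as the gene span plus 50 kb either side. The 8 windows held 133 of the 122375 peaks of the list. Each peak was placed at the promoter when it overlapped the 2 kb either side of a start site of the gene, otherwise in the gene body or in the flank. By these rules 32 peaks lay at promoters, 23 in gene bodies and 78 in flanks.

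p53 is kept low in unstressed cells by MDM2, an E3 ubiquitin ligase that marks it for destruction, and by MDM4, a relative that mutes its transactivation. DNA damage or oncogene signals release p53, which binds paired decamers in DNA and turns on genes for cell cycle arrest, repair, antioxidant defense and death, Mdm2 among them. The Cdkn2a product ARF blocks MDM2, so loss of Cdkn2a weakens this pathway without a lesion in Trp53 itself.

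The series holds 15 CUT&RUN libraries of fusion-positive rhabdomyosarcoma (FP-RMS) tumors from 2 mouse models, of which 6 MCP and 3 TCP libraries were made with an antibody to acetylated lysine 27 of histone H3 (H3K27ac), a mark of active promoters and enhancers, and 3 of each model with IgG. The peak list used here is that of library MCP H3K27ac 5. MCP mice carry Myf6-Cre, Cdkn2a(Flox/Flox), the fusion allele Pax(3P3F/P3F) and the reporter R26-tdTom. Cre from the myogenic gene Myf6 switches on the fusion protein PAX3-FOXO1, removes Cdkn2a and turns on tdTomato, and Trp53 carries no engineered allele. TCP mice have Tek-Cre in its place. Neither their libraries nor the remaining MCP libraries were used. Live tumor cells were sorted from the digested tumor with DAPI as the live-cell marker. A tdTomato gate, which would remove other cells and was used in other assays of the study, is not named in the labels of these libraries. The list is 1 tumor library with no replicate, so values are given without tests between conditions, and fewer cells carrying the mark cannot be told apart from less mark per cell.

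Fold enrichment compares the scaled fragments over a summit with the local background, each with 1 added, as the caller computed it. Fragment numbers at summits were recovered from the fold and p columns and are given with exact Poisson 95% intervals, which cover counting error only. The median peak of the list had 13 fragments and 84.0% of the peaks had fewer than 20. Marker promoters were checked in the same list. Among 8 myogenic genes only Myf6 had a promoter peak (fold 5.97), and Myod1, Myog, Myf5, Pax7, Des, Cdh15 and Chrna1 had none. None of 8 endothelial genes had one, and 1 of 8 immune genes did (Cd68, 5.91). Among genes of like promoter CpG content, a mean of 32.9% had a promoter peak for the 8 myogenic genes. That mean was 29.3% for the endothelial genes and 10.5% for the immune genes. The windows of several myogenic genes held peaks outside the gene's own promoter (29 for Myf5, 17 for Chrna1, 15 for Des, 11 for Myod1 and 7 for Cdh15). Those of Myog and Pax7 held no peak. The median window of all protein-coding genes held 7 peaks. Endothelial windows held 0 (Kdr) to 15 (Tek), and immune windows 0 (Itgam) to 24 (Cd68). Defining myogenic markers thus mostly lacked a promoter peak in this library.

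The regions on which the results turn are shown first, in mm10, on the strand of the gene and in lower case. They are the strongest peak of the Trp53 window, a whole peak of 201 bases in intron 1 (chr11:69582963-69583163, plus strand), 201 bases about the summit of the strongest peak of the Mdm2 window, in an intron of the neighbor Cpm (chr10:117659172-117659372, minus strand), 201 bases about the summit of the Trp53inp1 promoter peak (chr4:11155871-11156071, plus strand), and the only promoter peak of Sesn2, whole, in intron 1 (chr4:132509346-132509570, minus strand).
Trp53 intron 1: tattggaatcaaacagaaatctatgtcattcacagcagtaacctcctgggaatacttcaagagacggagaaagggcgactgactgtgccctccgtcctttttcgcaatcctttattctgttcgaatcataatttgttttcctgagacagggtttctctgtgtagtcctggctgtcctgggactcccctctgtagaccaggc
Mdm2 window, Cpm intron: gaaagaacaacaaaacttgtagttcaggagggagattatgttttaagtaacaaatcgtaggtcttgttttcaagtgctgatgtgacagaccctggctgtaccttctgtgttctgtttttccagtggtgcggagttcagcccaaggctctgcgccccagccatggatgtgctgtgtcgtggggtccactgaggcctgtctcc
Trp53inp1 promoter: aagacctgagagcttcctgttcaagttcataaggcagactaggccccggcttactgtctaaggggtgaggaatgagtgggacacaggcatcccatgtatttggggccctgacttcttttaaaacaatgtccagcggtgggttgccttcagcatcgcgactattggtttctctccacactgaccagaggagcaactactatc
Sesn2 promoter: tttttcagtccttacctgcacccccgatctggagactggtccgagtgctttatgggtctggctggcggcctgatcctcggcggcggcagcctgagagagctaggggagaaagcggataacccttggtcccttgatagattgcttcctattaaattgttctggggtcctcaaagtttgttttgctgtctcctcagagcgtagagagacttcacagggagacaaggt
No p53 site with up to 2 mismatches lay in these 4 stretches, although the Mdm2-window peak held 2 further from its summit. Those that did hold one are the strongest Zmat3 promoter peak, whole, in intron 1 (chr3:32364163-32364358, minus strand), and the 250 bases before the curated Ccng1 start site (chr11:40755287-40755536, minus strand, RefSeq promoter sequence). Capitals mark the 2 half-sites of 10 bases each.
Zmat3 promoter: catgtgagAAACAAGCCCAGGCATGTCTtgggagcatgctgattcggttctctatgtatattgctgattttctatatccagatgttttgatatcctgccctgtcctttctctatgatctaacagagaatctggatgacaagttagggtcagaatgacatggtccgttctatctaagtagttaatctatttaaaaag
Ccng1 promoter: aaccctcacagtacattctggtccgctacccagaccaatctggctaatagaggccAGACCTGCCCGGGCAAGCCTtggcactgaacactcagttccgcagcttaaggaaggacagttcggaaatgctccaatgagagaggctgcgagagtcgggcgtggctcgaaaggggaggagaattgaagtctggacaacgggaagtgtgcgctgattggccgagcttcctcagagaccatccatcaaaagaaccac

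All 8 genes had at least 1 promoter peak, against 45.6% of all protein-coding genes. The strongest promoter peaks ranged from a fold of 4.13 at Sesn2 to 14.0 at Trp53inp1. Set among the 9920 genes with a promoter peak, Trp53inp1 stood at the 96.0th percentile and Sesn2 at the 4.73rd. The other six lay near the middle: Zmat3 at 8.24 and Mdm2 at 8.21, Ccng1 at 6.88, Sesn1 at 6.67, Mdm4 at 6.53 and Trp53 at 5.75, between the 26.7th and the 60.9th percentile. The median of the 8 was 6.78, and that of the 9920 genes was 7.37. The share of genes with a promoter peak rose with promoter CpG content, from 4.45% to 81.7% over 10 groups of genes of equal size ordered by it. The members lay in groups 5 to 10, and the mean share of their groups was 65.1%.

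**Figure D1:**
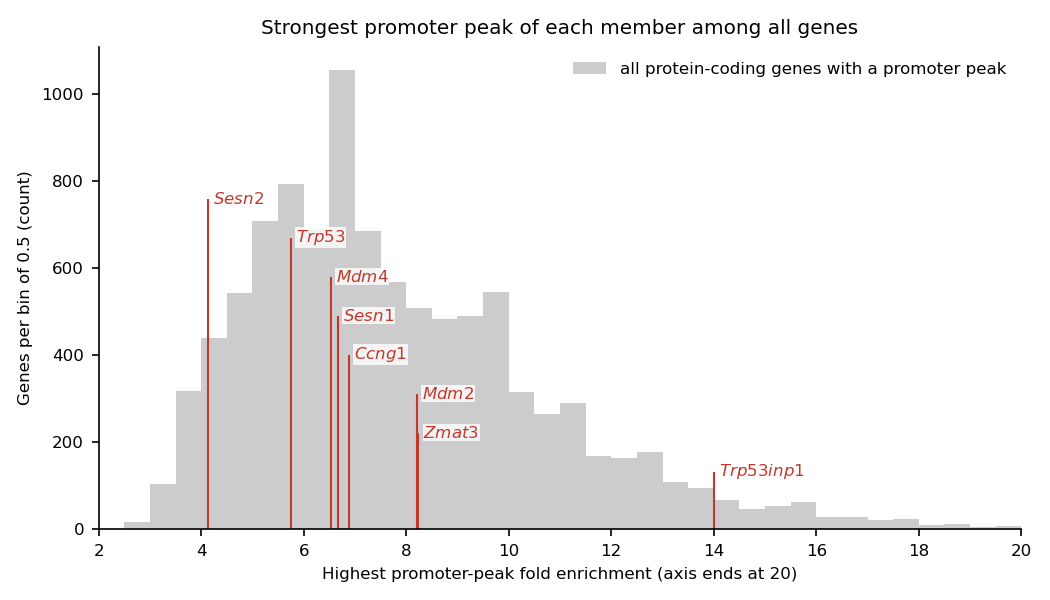
Highest promoter-peak fold enrichment per gene (x axis, cut at 20) against the number of genes in each bin of 0.5 (y axis) for the protein-coding genes with a promoter peak, in gray, with the 8 members as red lines whose heights only separate the names. Trp53inp1 lies at 14.0 in the right tail, Sesn2 at 4.13 in the left, and the other six near the middle.

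The fragments behind these values set how far the order of the members can be read. The strongest promoter peak had 32 fragments (21.9 to 45.2) at Trp53inp1, 30 (20.2 to 42.8) at Ccng1, 21 (13 to 32.1) at Mdm4, 19 (11.4 to 29.7) at Mdm2, 18 (10.7 to 28.4) at Zmat3, 17 (9.90 to 27.2) at Sesn1, 15 (8.40 to 24.7) at Trp53 and 9 (4.12 to 17.1) at Sesn2. In fragments, Sesn2 lay below Trp53inp1 and Ccng1 with intervals that did not overlap. Neighbors in this order overlapped widely, and no order among Mdm4, Mdm2, Zmat3, Sesn1 and Trp53 was detectable at this depth. The intervals leave out the background, which was 1.17 at Sesn2, 1.09 at Trp53inp1 and 3.00 at Ccng1, so they do not bound the folds.

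**Figure D2:**
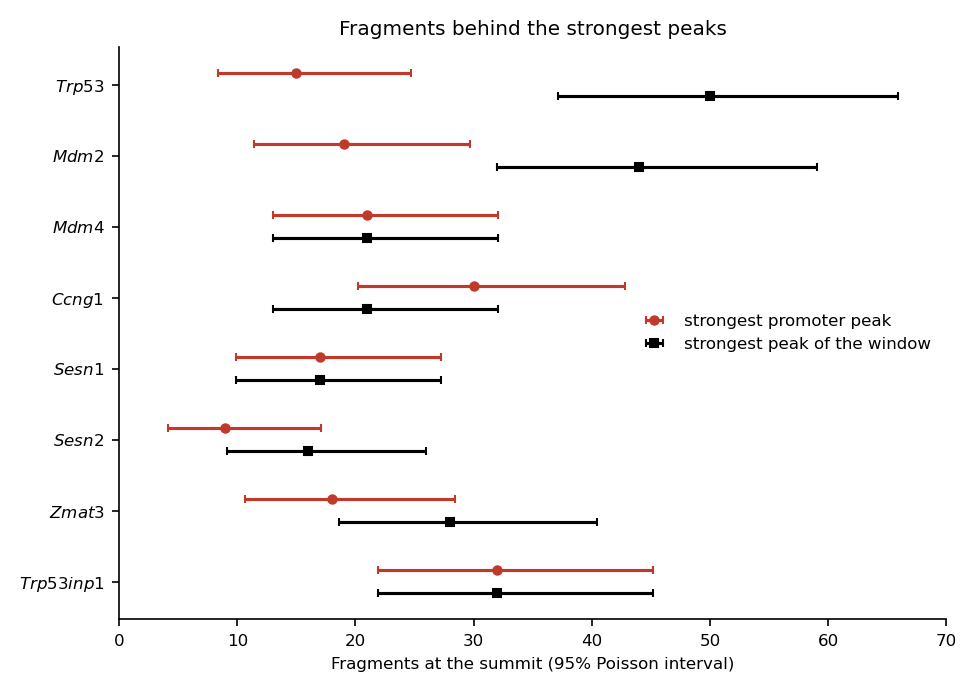
Fragments at the summit (x axis, with exact Poisson 95% intervals) for the strongest promoter peak by fold (red circles) and the strongest peak of the whole window (black squares) of each member. The windows of Trp53 (50 fragments) and Mdm2 (44) hold peaks with intervals above those of the promoter peak of highest fold in the same window. The Trp53 promoter peak with most fragments, not drawn, had 26 (17.0 to 38.1), which overlaps the interval of the 50 (37.1 to 65.9).

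No start site of the 8 genes lay inside a peak. Over all protein-coding genes 7.28% had a start site inside one, and of the 9920 with a promoter peak 16.0% did, so a count of 0 among 8 lay near the background. The nearest peak edge was 122 bp upstream of the outermost Trp53 start site, 312 bp upstream of that of Mdm2 and 237 bp upstream of that of Trp53inp1. It was 104 bp downstream of the first Sesn1 start site, 886 bp downstream at Sesn2 and 374 bp downstream at Zmat3. The closest were at Ccng1, 53 bp downstream of the curated start site, and at Mdm4, 7 bp upstream of the inner one.

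Trp53 (chr11:69580348-69591873, plus strand) had 6 promoter peaks, 4 further peaks in its first intron and 5 in the flanks. Its promoter peaks differed in fold and in background. Upstream they lay 1216, 547 and 246 bp from the nearest start site, with folds of 5.75, 2.67 and 5.11. Downstream, at 934, 1328 and 1676 bp, the folds were 3.43, 3.93 and 5.53. The median fold of all peaks was 5.22. The background under the 6 was 1.48, 5.00, 3.00, 6.00, 2.18 and 1.42 fragments in that order, where 47.3% of the peaks with a solved background stood at the lowest background of 1.05 and 8.53% were at 3 or more. The peak 934 bp downstream thus had 26 fragments (17.0 to 38.1), the most of the 6, and the second-lowest fold. The promoter is shared: Wrap53, which encodes a Cajal body and telomerase factor and an antisense transcript of Trp53, starts 98 bp away on the other strand, and all 6 peaks lay within 2 kb of a Wrap53 start site. The mark of the 2 genes cannot be told apart here.

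The strongest peak of the Trp53 window lay 2648 bp into the gene, in intron 1. It was 201 bp wide with 50 fragments (37.1 to 65.9), a fold of 15.7 and a −log10 q of 39.1, above 99.6% of the peaks of the list. The 3 other intronic peaks outside the promoter had folds of 3.87, 4.76 and 4.54 and 10 to 15 fragments. In the strong peak 35.3% of the bases were repeat-masked in the reference, and 14.1% of its words of 32 bases occurred again in the genome, so part of its reads could belong elsewhere. The part of that in its height was not tested. No Trp53 peak held a p53 site with up to 2 mismatches. In the flanks, 3 peaks (5.22 to 6.94) lay at the start of Fxr2, an RNA-binding protein gene, 53.2 to 54.5 kb downstream.

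**Figure D3:**
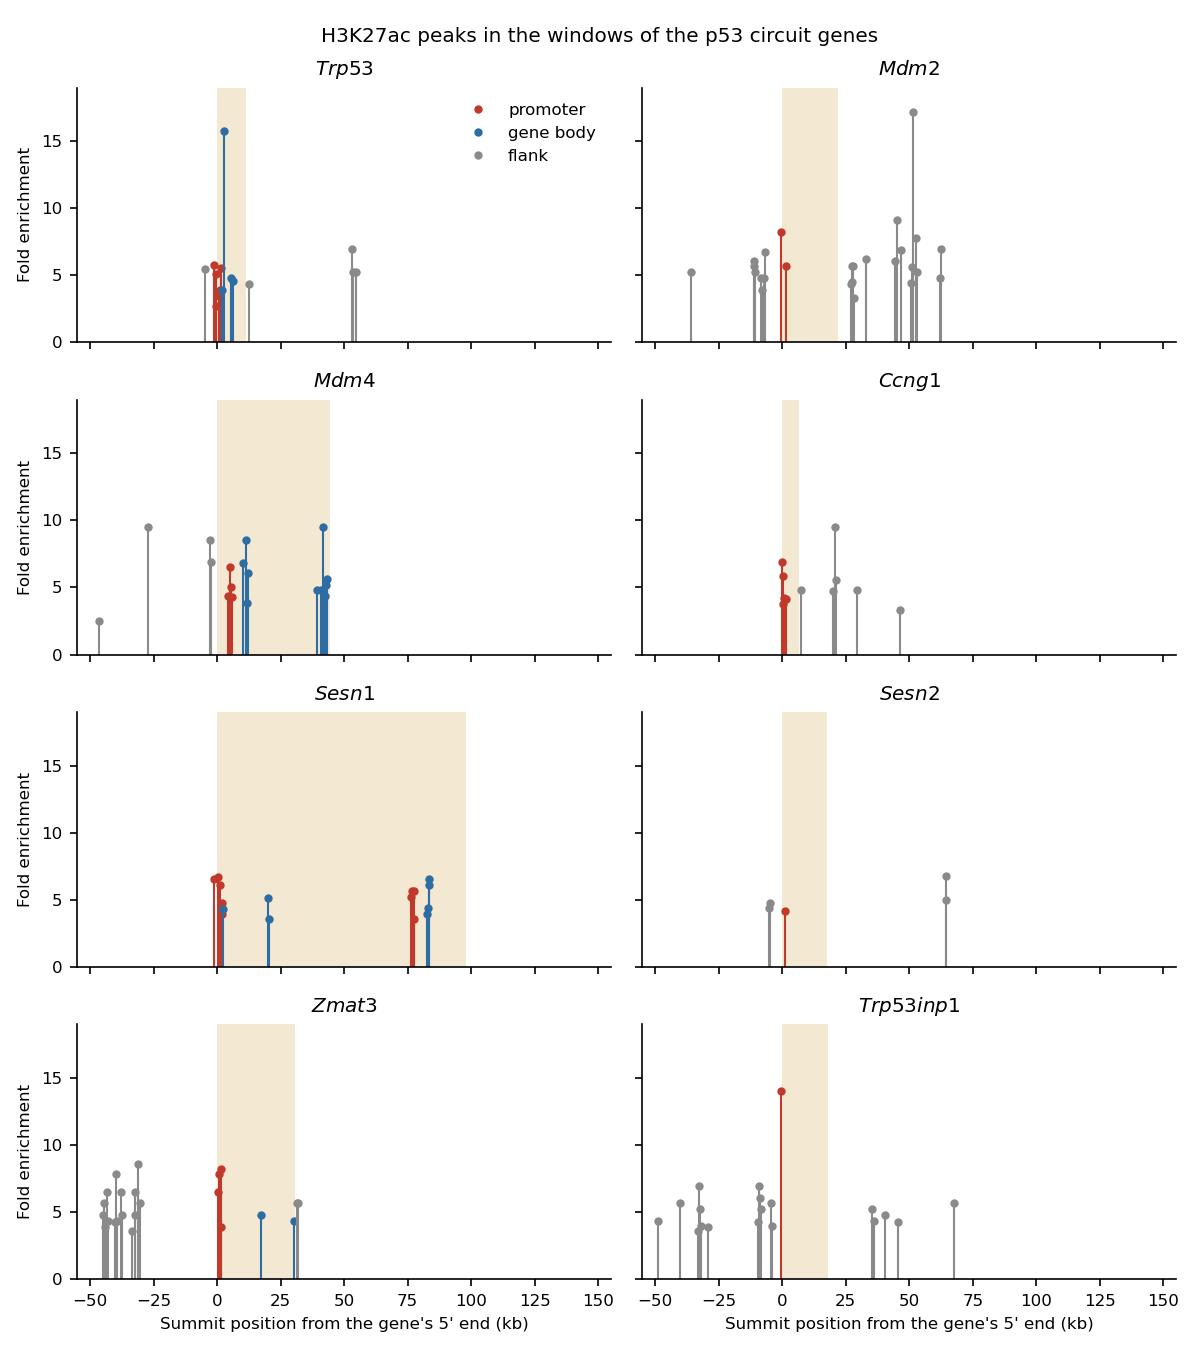
Fold enrichment (y axis) of each peak summit against its distance from the 5′ end of the gene in kb (x axis, downstream to the right) in the 8 windows, with the gene span shaded. Promoter peaks are red, gene body peaks blue and flank peaks gray. The Mdm4 promoter peaks, and the Sesn1 promoter peaks away from the left edge of the shaded span, lie at inner start sites.

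Mdm2 (chr10:117688875-117710758, minus strand) had 26 peaks in its window, the most of the 8 genes, and 24 of these were in the flanks. Its 2 promoter peaks lay 403 bp before the start site (fold 8.21, 19 fragments) and 1612 bp after it (5.65, 12 fragments, 6.20 to 21.0). No peak lay elsewhere in the gene, and no peak lay within 2 kb of the predicted inner start site at 117701559. Downstream, 16 flank peaks lay in Cpm, a carboxypeptidase gene. They lay 17.9 to 53.3 kb from the nearest Mdm2 start site, the predicted inner one, and 9.20 kb further from the curated one. The strongest, 1250 bp wide with its summit 42.3 kb away, had a fold of 17.2, 44 fragments (32.0 to 59.1) and a −log10 q of 36.7. It had the highest fold of the 133 peaks, while the intron 1 peak of Trp53 had more fragments and the higher −log10 q. In it 32.1% of the bases were repeat-masked and 10.3% of the words of 32 bases occurred again in the genome, and 4 other flank peaks of Mdm2 were copied over 42.0% to 100% of their words. The part of that in their height was not tested. The widest of the 133, at 2775 bp, lay in the same gene at 37.4 kb, within 2 kb of start sites of Cpm and Gm25709. It had a fold of 6.88 and 30 fragments. Both belong to a run of 8 peaks over 8.59 kb. Upstream, 7 intergenic peaks between 6.76 and 11.2 kb before the start site spanned 4.64 kb with folds of 3.93 to 6.74. Which gene these regions act on was not tested.

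Mdm4 (chr1:132986105-133030587, minus strand) had 2 curated start sites that differed. The outer one, at 133030587, had no peak within 2 kb, and its nearest were 2418 bp upstream and 4105 bp downstream. The upstream peak lay within 2 kb of start sites of n-TKctt25 and n-TKctt26. The inner one, at 133025416, had all 4 promoter peaks, with folds of 4.27, 5.05, 6.53 and 4.36 and between 9 and 23 fragments. The weakest in fragments, with 9, was made wholly of words of 32 bases that occur elsewhere in the genome (100%). All 4 promoter peaks also lay within 2 kb of a start site of Gm41953, which starts 1317 bp from an Mdm4 start site. Over the 8 genes, 17 of the 32 promoter peaks lay within 2 kb of a start site of another gene. Their mark cannot be assigned to 1 gene here. Of 10 gene body peaks, 4 lay in and about the second exon of most transcripts, 5.08 to 6.87 kb from a start site, with folds of 3.87 to 8.51. The other 6 lay in the last exon over 4.29 kb, the strongest with a fold of 9.53 and 21 fragments. Between 6.25% and 34.5% of the words of these 6 peaks occurred again in the genome. An equally strong flank peak (9.53, 21 fragments) lay 27.1 kb upstream in an intron of Pik3c2b, a lipid kinase gene.

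Ccng1 (chr11:40748552-40755309, minus strand), which encodes the p53-induced cyclin G1, had 5 peaks within 2.17 kb around its start. The one upstream was the strongest, with a fold of 6.88, 30 fragments and a background of 3.00. Those at 107, 311, 734 and 1459 bp downstream had folds of 5.86, 3.74, 4.23 and 4.13. No other peak lay in the gene. Its strongest flank peak (9.53, 21 fragments) lay 20.9 kb away in a run of 3 peaks at the paired promoters of Nudcd2, a chaperone cofactor gene, and Hmmr, a mitotic spindle gene.

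The sestrins restrain mTORC1 and support antioxidant defense, and Sesn1 and Sesn2 differed in the number of their peaks. Sesn1 (chr10:41810574-41908436, plus strand) had 16 peaks, none of them in the flanks. Its 9 promoter peaks put it at the 97.0th percentile of genes with a promoter peak, and they were divided between 2 curated start sites 76.9 kb apart. The first had 5 with folds up to 6.67, and the second had 4 with folds up to 5.65. At the first, Cep57l1 starts 706 bp away on the other strand. Of 7 gene body peaks, 1 lay 2.38 kb and 2 lay 19.9 to 20.3 kb after the first start site, and 4 lay 5.76 to 6.61 kb after the second with folds up to 6.51. Sesn2 (chr4:132492804-132510456, minus strand) had 5 peaks in all: 1 at the promoter, 930 bp downstream (4.13, 9 fragments), and 4 in the flanks, the strongest with a fold of 6.74 and 16 fragments (9.15 to 26.0), beyond the 3′ end. It was the only member without a promoter peak at a −log10 q of at least 5 (2.42 for its single one).

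Zmat3 (chr3:32334792-32365665, minus strand) encodes a p53-induced RNA-binding protein. It had 4 promoter peaks, all downstream of the start sites, at 383, 564, 1387 and 1562 bp with folds of 6.51, 7.80, 8.24 and 3.87. The noncoding gene 4930429B21Rik starts 126 bp away. In the flanks, 15 peaks lay 30.1 to 44.7 kb upstream in a run of 14.7 kb over the promoter and introns of Pik3ca, the catalytic subunit gene of PI3 kinase. The strongest of these had a fold of 8.59 and 28 fragments (18.6 to 40.5).

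Trp53inp1 (chr4:11156441-11174379, plus strand) encodes a p53 cofactor with roles in autophagy and cell death. It had a single promoter peak, 663 bp wide with its summit 470 bp upstream, at a fold of 14.0 and a −log10 q of 25.7, above 99.3% of the peaks of the list. No peak lay in the gene body. Of 18 flank peaks, 6 lay between 4.12 and 9.57 kb upstream (3.93 to 6.94) and 5 between 29.3 and 33.0 kb upstream (3.58 to 6.94). All but the nearest of these 5 lay within 2 kb of a start site of Gm11827. Another 4 lay in Ccne2, the cyclin E2 gene, with folds of 4.28 to 5.22.

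**Figure D4:**
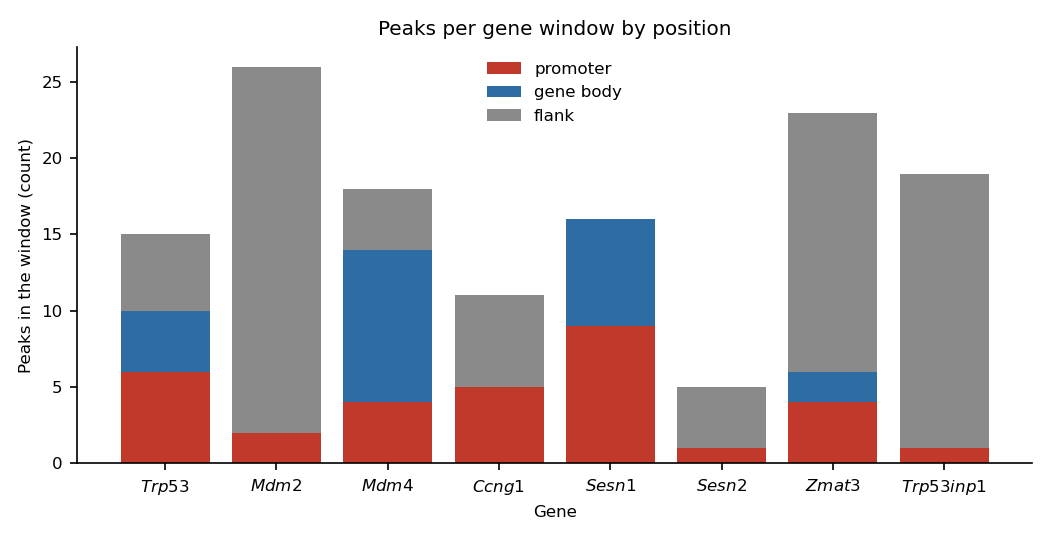
Number of peaks (y axis) in the window of each member (x axis), split into promoter (red), gene body (blue) and flank (gray). Mdm2 had 26, mostly in its flanks, Sesn1 had 16 with none in its flanks, and Sesn2 had 5.

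The windows differ in length and chromosome, so counts were set per 100 kb. The Mdm2 window had 21.3 peaks per 100 kb, Zmat3 17.6, Trp53inp1 16.1, Trp53 13.4, Mdm4 12.5, Ccng1 10.3, Sesn1 8.09 and Sesn2 4.25, where the median window of all protein-coding genes had 5.36. Mdm2 stood at the 91.2nd percentile of all genes and Sesn2 at the 44.5th. Peaks were denser on chromosome 11, whose median window had 11.2. Within their own chromosome Trp53 fell from the 78.0th to the 57.9th percentile and Ccng1 from the 69.3rd to the 46.6th. Of the 78 flank peaks, 24 lay at the promoter of another RefSeq gene and 49 had their summit inside another gene. Peak strength in the windows was that of the list: the median fold was 5.22 in both.

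The p53 consensus, 2 half-sites with a spacer of 0 to 13 bases, was searched over the whole width of each peak. It reads the same on both strands. With up to 2 mismatches it was found in 12 of the 133 member peaks (9.02%), against 11.9% of all peaks, a share not above that of the list. These 12 lay in the windows of Mdm2 (5), Mdm4 (3), Ccng1 (2), Sesn1 (1) and Zmat3 (1). With up to 1 mismatch the shares were 5 of 133 (3.76%) and 1.49% of all peaks, and in 300-base RefSeq promoters the share was 1.09%. Peaks differ in width, so the 100 bp either side of each summit were also searched. There 13 of 133 member peaks (9.77%) held a site with up to 2 mismatches, against 8.70% of all peaks. With up to 1 mismatch it was 6 of 133 (4.51%) against 0.972%. The direction at up to 2 mismatches thus depended on the stretch searched. Over whole peaks, a site without mismatch lay in 115 of all 122375 (0.0940%), and the Zmat3 promoter peak was 1 of these. These matches are a description, and binding of p53 was not measured.

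Within 2 kb of a start site, 5 of the 8 genes had a site with at most 1 mismatch (Mdm2, Mdm4, Ccng1, Zmat3 and Trp53inp1), against 24.6% of all protein-coding genes, and 2 of 8 had a site without mismatch (Zmat3 and Trp53inp1), against 1.64%. The members include genes known for such sites, so these shares are background to the peaks. The sites are shown because their place beside the peaks differed, with half-sites in capitals and the spacer in lower case. They lie at chr3:32364331-32364350, chr4:11155112-11155132, chr11:40754936-40754955, chr11:40755462-40755481, chr10:117699921-117699940, chr10:117711670-117711689 and chr1:133031542-133031563, in this order.
Zmat3 intron 1, no mismatch: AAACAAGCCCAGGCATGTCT
Trp53inp1 upstream, no mismatch: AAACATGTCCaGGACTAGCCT
Ccng1 intron 1, 1 mismatch: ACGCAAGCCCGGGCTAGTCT
Ccng1 upstream, 1 mismatch: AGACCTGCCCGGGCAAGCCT
Mdm2 inner start site, 1 mismatch: GGACTTGTCCAGCCAAGTTT
Mdm2 upstream, 1 mismatch: GGGCAATTCCGGGCAAGTCC
Mdm4 outer start site, 1 mismatch: GTGCAAGTCCccAGGCATGTTT
The Zmat3 site, 1275 bp after the start site, and the first Ccng1 site, 341 bp after, lay inside peaks with folds of 8.24 and 3.74. The second Ccng1 site, 162 bp before a start site, lay directly beside the strongest Ccng1 promoter peak. The Trp53inp1 site, 1319 bp upstream, lay 410 bp from the nearest peak. The upstream Mdm2 site was 258 bp from one, and the sites near the inner Mdm2 and the outer Mdm4 start sites were 9056 and 1442 bp away. Inside the 2 strongest Mdm4 peaks of the second-exon region lay a further pair of sites with 1 mismatch, outside the 2 kb windows, at chr1:133019441-133019460 and chr1:133020295-133020314.
Mdm4 gene body, first: GAACATGTCCAAACCTGTCT
Mdm4 gene body, second: GGGCTTGTCTGGCCTTGTCT

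The other genes of the pathway were listed by role. Of 52, 44 (84.6%) had a promoter peak, again against 45.6% of all genes and a mean of 65.5% for the CpG groups of these genes. Among 18 regulators of p53, 17 had one, led by the ubiquitin ligase gene Cop1 (fold 16.1, 37 fragments) and the damage kinase gene Atm (12.9, 34 fragments), and Ppp1r13b, an ASPP family gene, had none. Among 12 targets for cell cycle arrest and repair, 11 had one, led by Xpc (13.1), a damage sensor of nucleotide excision repair, and Phlda3 (10.1), an AKT inhibitor, and Rprm had none. The cell cycle inhibitor gene Cdkn1a, the best known target, had 2 promoter peaks with a top fold of 5.75. Among 12 targets for cell death, 9 had one, with Pmaip1 and Siva1 highest (8.24 each). Of the BCL2 family genes among them Pmaip1 had 3 promoter peaks, Bbc3 5 with a top fold of 5.76, and Bax none. The death receptor gene Tnfrsf10b and the autophagy gene Dram1 had none either. Of 4 metabolic targets, Fdxr (7.53) and Ak1 (4.79) had one and Tigar and Gls2 did not. Of 6 paralogs of the members, 5 had one, led by Ccng2 (7.30) and Zmat4 (6.51), and Trp73 had none. Cdkn2a, the gene floxed in these mice, had 77 peaks in its window, of which 12 lay at promoters with a top fold of 7.80 and 15 in its gene body with a top fold of 9.96. How many Cdkn2a alleles remained in the sorted cells was not measured.

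**Figure D5:**
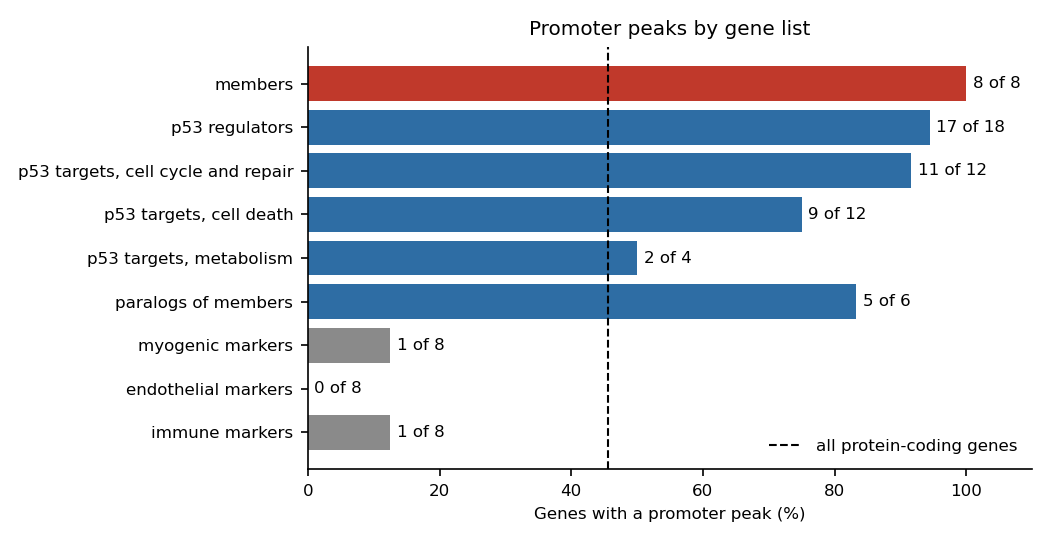
Share of genes with a promoter peak (x axis, in percent) in the 8 members, the 5 pathway lists and the 3 marker lists, with counts beside the bars and the share of all protein-coding genes (45.6%) as a dashed line. The members and pathway lists lie above the line, the metabolism list only narrowly (50%, with a mean of 49.4% for its CpG groups). The marker lists lie below the line. The mean for the CpG groups was 32.9% for the myogenic, 29.3% for the endothelial and 10.5% for the immune list.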

How the data were processed

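CUT&RUN read pairs were aligned by the authors to mm10 and peaks were called against IgG. The methods name bowtie and MACS1.4 with reads in problematic regions and near Col19a1 removed, whereas the submitters' processing notes name BWA, SAMtools and MACS2, and the list is named for MACS2. The deposited list gives, per peak, a score, the fold enrichment, the −log10 p and the −log10 q as the authors' caller wrote them, and the score is the whole part of 10 times the −log10 q. The list was assigned to its library by the number in its peak names. The largest q was 0.0471. Peak names run to 122959, so 584 numbers are absent, none of them within the 8 windows.

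Coordinates were checked against GRCm38 chromosome lengths, and genes and sequences were taken from RefSeq for that build. Overlap meant at least 1 bp. All 84 listed genes matched, 1 of them (Trp53rk) by a synonym. RefSeq promoter sequences were found for 6 of the 8 members. Fragments were solved from the fold and p columns with a scale of 0.884, which gave whole numbers within 0.01 for 99.997% of peaks and 1 solution for 97.2%. A scale 3% off solved 0% of a sample of peaks. By this solution the H3K27ac library was 1.13 times as deep as its control. Without molecular identifiers, fragments cannot be taken as independent molecules. These steps were tested on simulated data with Python 3.11.15, NumPy 2.4.6, SciPy 1.17.1, pandas 2.3.3, pysam 0.24.0 and matplotlib 3.10.9.

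Named were all members, of each pathway list the 2 genes with the highest promoter fold and every gene without a promoter peak, Cdkn2a and Cdkn1a, and neighbors whose promoters or bodies held counted peaks. Bbc3 was added after its values were seen, as a BCL2 family gene. The members and lists were chosen with earlier results of these data known. No test was run, because 1 list has no replicates. Alternatives were other window sizes, stricter peaks, curated start sites, summit overlap, the widest peak and other mismatch limits. For p53 sites a further one was the 100 bp either side of the summit.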

Additional observations from a re-analysis of the deposited data

How the results depend on the processing

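All 8 members kept a promoter peak with a promoter window of 1 kb and with curated start sites, 7 did at a −log10 q of at least 5 (38.0% of all genes), and 6 did in the strongest 25% of the peaks (29.7%). Sesn2 was without one in both of the last, and Trp53 in the strongest 25%. The 133 window peaks became 79 with flanks of 10 kb, 227 with flanks of 100 kb, 67 at a −log10 q of at least 5 and 31 in the strongest 25%, since each setting changes the length searched or the peaks admitted. In the strongest 25%, 28 of the 52 pathway genes had a promoter peak in place of 44, where 29.7% of all genes did in place of 45.6%. At a −log10 q of at least 5 it was 36 of the 52, against 38.0% of all genes. Member peaks with a p53 site numbered 5 with at most 1 mismatch and 48 with at most 3, in place of 12. The 5 were 3.76% of the member peaks, against 1.49% of all peaks, and the 48 were 36.1% against 41.5%. Within 100 bp of the summit 13 held a site with up to 2 mismatches (9.77%, against 8.70% of all peaks). Using the widest peak in place of the strongest lowered the fold to 5.22 for Trp53, 6.88 for Mdm2, 6.82 for Mdm4 and 4.13 for Sesn2. It left that of Ccng1, Sesn1, Zmat3 and Trp53inp1 unchanged. The median density percentile of the members was 76.7, and 84.1 and 68.4 under its alternatives. No paired analysis was possible because a single peak list of 1 library was used, and for the same reason no replicate could be left out. With a median of 13 fragments per peak, differences between neighboring members were not detectable, and a gene without a peak may carry the mark below the caller's threshold. Flank peaks were assigned by distance only.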
